A study of Mus musculus with 4 samples.

Results

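Meis binding was followed at 5 genes of the bone morphogenetic protein (BMP) pathway in mouse limb buds, the ligand genes Bmp2 and Bmp4, the antagonist gene Grem1 and the target genes Msx1 and Msx2. Their surroundings were taken as fixed windows of the mm9 genome, chr2:132900000-133900000 for Bmp2, chr14:46500000-47500000 for Bmp4, chr2:113100000-113800000 for Grem1 together with its neighbour Fmn1, chr5:38000000-38500000 for Msx1 and chr13:53300000-53900000 for Msx2. A Meis summit, the point of highest signal within a peak, belonged to a gene's window by position alone. In total 121 of the 40716 listed summits lay in the windows, 69 of 22906 in forelimb (FL) buds and 52 of 17810 in hindlimb (HL) buds. Summits with the same outer limits were joined into 1 peak, which left 57 of 21338 FL peaks and 47 of 16987 HL peaks.

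BMP ligands are secreted proteins that bind pairs of serine-threonine kinase receptors and act through the Smad proteins that these receptors phosphorylate. Gremlin 1, the product of Grem1, is a secreted protein that binds BMP ligands and keeps them from their receptors, and in the limb bud it sustains the feedback loop between Shh in the posterior mesenchyme and Fgf genes in the apical ridge. Msx1 and Msx2 encode homeodomain transcription factors whose expression follows BMP signalling in the limb mesenchyme and ectoderm. Limb enhancers of Grem1 lie in its large neighbour Fmn1. Meis1 and Meis2 are homeodomain proteins of the TALE class that are present in the early limb bud and become restricted to its proximal part.

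The experiment compared where Meis proteins were bound in FLs and in HLs. Each limb was represented by 1 chromatin immunoprecipitation (ChIP) library and 1 input library, the latter from chromatin that was not precipitated, and all 4 came from wild-type C57BL/6 embryos at E10.5 with about 36 somites. About 500 buds were pooled per limb, so each library averaged over all cell types of the bud and over proximal and distal cells. A pair of anti-Meis antibodies was used in the same precipitation, and a peak therefore cannot be assigned to Meis1 or Meis2. With 1 ChIP library per limb, no value below has a replicate error and no test between FLs and HLs was possible.

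For each summit, the peak caller gave the fold enrichment of ChIP over input, a p and a q, the p after adjustment for the number of places examined. The lists extended to p of 0.022 in FLs and 0.0217 in HLs, so that many entries were weak, and q of at most 0.05 marks here the stronger peaks. Over whole lists, 17.4% of FL peaks and 10.1% of HL peaks reached that q. The lists give no read counts, so the number of reads behind a single peak is not known here.

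In FLs, 17 of the 57 peaks around the BMP genes had a q of at most 0.05, that is, 29.8% (95% Wilson interval 19.5 to 42.7%), beside the 17.4% of the whole list. In HLs, 3 of 47 peaks did, 6.38% (2.20 to 17.2%), beside 10.1%. Intervals of this kind cover counting error only. The Msx2 window alone gave 6 of the 17 FL peaks, and without it 11 of 41 remained, 26.8% (15.7 to 41.9%). At the weak end, 34 FL peaks and 34 HL peaks had a q of 1, which is 59.6% and 72.3% of the peaks in the windows and 68.8% and 78.8% of the whole lists.

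Summit density was uneven over these surroundings. Together the 3.8 Mb held 18.2 FL summits per Mb and 13.7 HL summits per Mb, against 8.71 and 6.77 over the 2629.9 Mb that the lists span. The Bmp4, Msx1 and Msx2 windows had 18, 36 and 33.3 FL summits per Mb and 17, 22 and 23.3 HL summits per Mb. The Bmp2 window, with 7 and 4, lay below the values of the lists, and the Grem1-Fmn1 window, with 8.57 in each limb, lay just below that of the FL list and above that of the HL list. Counting only summits with a q of at most 0.05, the values were 5 per Mb against 1.52 in FLs and 0.789 per Mb against 0.70 in HLs. The Msx2 window alone had 11.7 such FL summits per Mb. Without that window the values were 3.75 per Mb in FLs and 0.625 in HLs. The median fold was 2.95 in FLs and 2.88 in HLs, close to the 2.78 of either whole list, so most peaks were of ordinary height. Peaks with several summits made up 12.3% of the FL peaks in the windows (7 of 57), and 6.14% of the FL list. In HLs the shares were 6.38% (3 of 47) and 4.15%.

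The windows differed among themselves. Grem1 with Fmn1 had 6 FL and 6 HL peaks, of which 4 and 0 reached a q of 0.05. Bmp2 had 7 and 4, with 2 and 0 at that level. The Bmp4 window held 14 FL and 15 HL peaks, with 4 and 1. The FL list as a whole also had more peaks at that level, 3722 against 1721 in HLs. Around Msx1 there were 14 and 9 peaks, with 1 and 1, and around Msx2 16 and 13, with 6 and 1. Counted as places, where overlapping peaks of the limbs are 1 place, 85 places were listed, 16 in both limbs, 41 in the FL list only and 28 in the HL list only. Places in 1 list are the rule for the full lists, where 22.6% of all FL peaks overlapped an HL peak and 29.0% of all HL peaks an FL peak. Among listed peaks with a q of at most 0.05, these shares were 67.0% and 89.3%. Of the 85 places, 18 had a q of at most 0.05 in either limb.

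**Figure D1:**
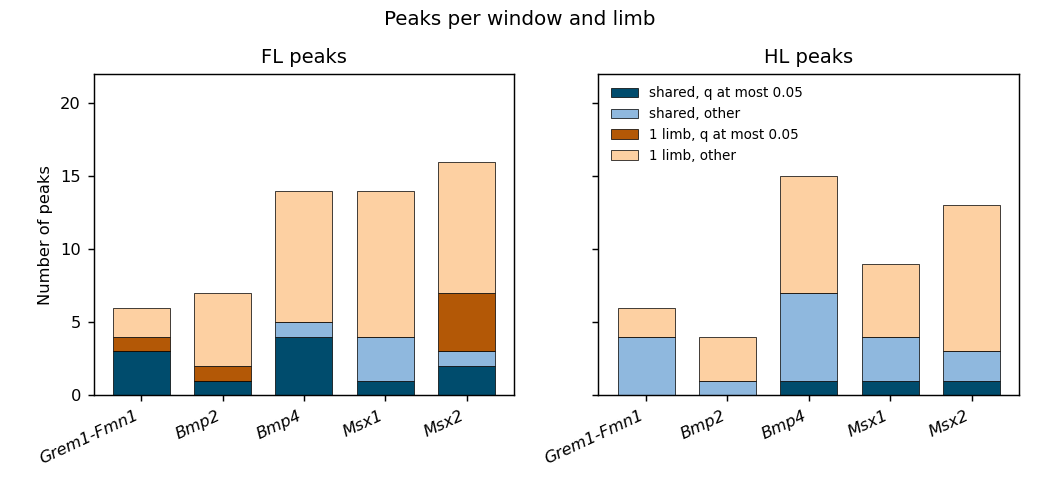
Number of FL peaks (left) and HL peaks (right) in each window, on a linear axis from 0. Dark colours mark a q of at most 0.05, blue marks peaks that overlap a peak of the other limb and orange marks peaks of 1 limb. In the Grem1-Fmn1 window 3 shared FL peaks and 1 peak of FLs only are dark, and none of the HL peaks there is.

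Only 1 site around these genes stood near the top of the lists. It lay in the Msx2 window and ranked 75 of 21338 FL peaks and 97 of 16987 HL peaks by fold. The next peak in FLs ranked 858 and belonged to the same window, and the next in HLs ranked 1492 and belonged to Bmp4. The highest FL peaks of Bmp4, Msx1, Grem1 and Bmp2 ranked 1383, 1419, 2254 and 2787.

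**Figure D2:**
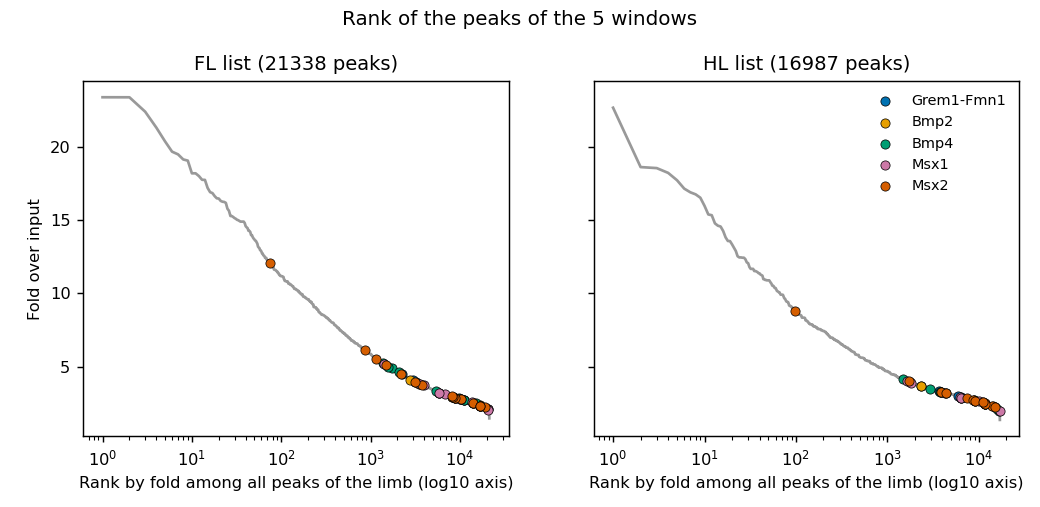
Fold over input (linear axis) against the rank by fold (log10 axis) of all FL peaks (left) and all HL peaks (right), as a grey line, with the peaks of the 5 windows as coloured points. Apart from the site of the Msx2 window at rank 75 in FLs and 97 in HLs, the points lie at ranks of 858 or lower down in FLs and 1492 or lower down in HLs.

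The positions of peaks were read against gene starts in mm9, which were worked out from the distances of the study's peak-to-gene assignment and were known for Grem1, Fmn1 and Bmp4 but not for Bmp2, Msx1 and Msx2. No FL or HL peak overlapped the window from 250 bp before to 50 bp after the start of Grem1, Fmn1 or Bmp4. The same held at the other known starts of the windows, those of Gm15217, Cdkn3, Ror2, Sptlc1 and Gm5449. A promoter without a peak therefore does not set Grem1, Fmn1 or Bmp4 apart, and the share over all placed genes was not computed. The promoter sequences of Grem1, Fmn1 and Bmp4 are shown. They are RefSeq sequences of another build, GRCm38.p6, and run 5′ to 3′ on the strand of the gene, from chr2:113758599-113758898 (minus strand) for Grem1, chr2:113327486-113327785 (plus strand) for Fmn1 and chr14:46390620-46390919 (minus strand) for Bmp4. Capitals mark the hexamer TGACAG, the core recognised by TALE proteins of the Meis type, or its reverse complement CTGTCA. RefSeq gives Fmn1 a second promoter, chr2:113684840-113685139, and the one shown is at the start farther from Grem1, 431 kb away as in mm9.
Grem1: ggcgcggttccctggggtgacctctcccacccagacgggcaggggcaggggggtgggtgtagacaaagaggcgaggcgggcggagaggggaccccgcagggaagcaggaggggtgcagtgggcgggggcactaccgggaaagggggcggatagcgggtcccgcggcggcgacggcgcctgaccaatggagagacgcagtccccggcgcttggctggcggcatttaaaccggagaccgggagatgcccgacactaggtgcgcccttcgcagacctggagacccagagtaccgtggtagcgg
Fmn1: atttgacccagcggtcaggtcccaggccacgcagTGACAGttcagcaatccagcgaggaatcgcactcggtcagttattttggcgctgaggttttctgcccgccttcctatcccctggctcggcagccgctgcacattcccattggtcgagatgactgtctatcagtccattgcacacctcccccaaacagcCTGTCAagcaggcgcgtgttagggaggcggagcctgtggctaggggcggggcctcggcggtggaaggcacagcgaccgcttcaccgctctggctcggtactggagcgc
Bmp4: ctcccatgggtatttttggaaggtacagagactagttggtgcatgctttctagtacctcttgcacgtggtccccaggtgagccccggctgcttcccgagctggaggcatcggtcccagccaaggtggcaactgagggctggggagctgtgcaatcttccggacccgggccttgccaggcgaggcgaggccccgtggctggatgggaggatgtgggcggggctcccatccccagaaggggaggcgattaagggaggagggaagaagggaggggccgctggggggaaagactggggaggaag

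The Fmn1 promoter shown held the hexamer at 2 positions, once on each strand. The second Fmn1 promoter and those of Grem1, Bmp4, Msx1 and Msx2 held none, and Bmp2 was not among the promoters searched. On either strand, 19.2% of the 32851 mouse promoters of this length hold it. The octamers TGATTTAT and TGATTGAT, searched on both strands as joint sites of Hox and Pbx proteins, were in none of these promoters, and 0.977% and 0.746% of all promoters hold them. These matches are letters in a window and were not set against binding. The Fmn1 start at the promoter that holds them had no peak within 100 kb in either limb. The second Fmn1 promoter was not placed in mm9, so its distance from the peaks was not measured.

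Bmp4 encodes a ligand that is expressed in the limb mesenchyme and in the apical ridge. Its start, at position 47010344 on the minus strand, lay in a stretch with few and weak peaks. The nearest FL peak was 63.6 kb downstream (fold 2.70, q of 1), and within 100 kb there were 3 FL peaks, all with a fold of 2.70 and a q of 1. HLs had no peak within 100 kb, the nearest being 188 kb upstream (3.18-fold, q of 1). All 4 FL peaks and the 1 HL peak of this window with a q of at most 0.05 were more than 100 kb from the start.

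The strong Bmp4 sites fell on both sides of the gene. Downstream, an FL peak at chr14:46576305-46576725 reached 5.26-fold (q of 2.6e-07) at 434 kb, where HLs reached 2.89-fold (q of 1). Another, at chr14:46639416-46639748 and 371 kb downstream, was 4.89-fold in FLs (q of 0.000113) and 2.74-fold in HLs (q of 1). At these 2 places the FL fold was 1.82 and 1.78 times the HL fold, the largest ratios among the shared pairs of the 5 windows. Their summits in the limbs were 29 and 4 bp apart.

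Upstream of Bmp4 the peaks formed a compact group about 215 kb from the start. It comprised 3 FL peaks with 6 summits over 1.59 kb and 3 HL peaks with 5 summits over 1.16 kb. The highest FL summit had a fold of 5.004 (q of 4.37e-06), in the peak chr14:47224829-47225011, and an HL summit 17 bp away had a fold of 3.30 (q of 0.568). Beside it, the FL peak chr14:47225099-47226031 carried 4 summits, the highest 4.64-fold (q of 4.29e-05), and overlapped the HL peak chr14:47225539-47225996, which carried 3 summits, the highest 4.16-fold (q of 0.0103). This was the only place outside the Msx2 window with a q of at most 0.05 in both limbs. The order of summits was not the same in the limbs. In FLs the summits at 0 and 224 bp, counted from the highest FL summit, stood above the one at 978 bp (4.27-fold, q of 0.000548), whereas in HLs the highest was the one at 1002 bp, 24 bp from its FL neighbour, and the summit at 252 bp reached 2.53-fold (q of 1).

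**Figure D3:**
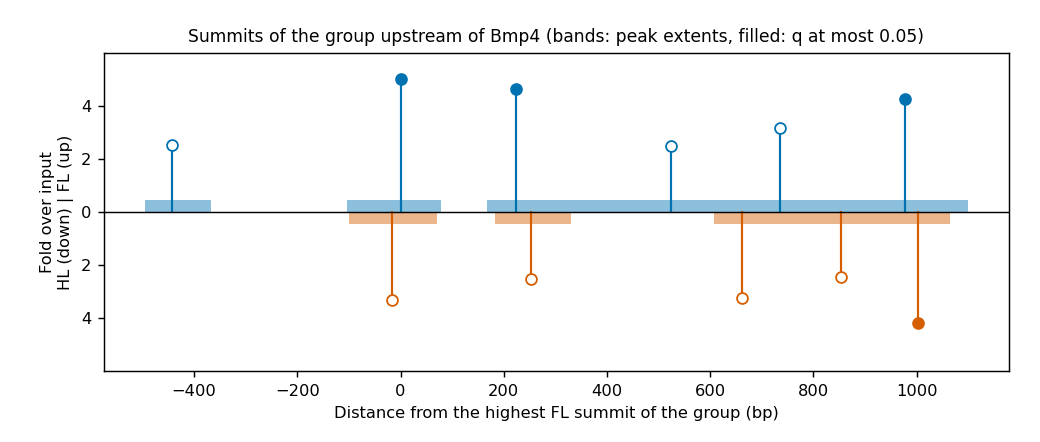
Fold over input of each FL summit (blue, upwards) and HL summit (orange, downwards) in the group about 215 kb upstream of Bmp4, against the distance in bp from its highest FL summit. Bands are peak extents and filled points have a q of at most 0.05; the FL folds of 5.004, 4.64 and 4.27 are filled, and in HLs only the 4.16-fold summit at 1002 bp is.

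The other high HL peaks of the Bmp4 window were in HLs only. They lay 232 kb downstream at chr14:46778610-46778752 (3.98-fold, q of 0.086) and 217 kb downstream at chr14:46792780-46792952 (3.46-fold, q of 0.386), and neither reached a q of 0.05. The other known starts of this window were those of Gm15217, 11.2 kb downstream of the Bmp4 start, and of Cdkn3, which encodes a phosphatase acting on cyclin-dependent kinases, 370 kb upstream. The group at 215 kb was 155 kb from the Cdkn3 start, and so nearer to Cdkn3 than to Bmp4.

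Bmp2 encodes a ligand expressed in the posterior mesenchyme and the apical ridge. Its start was not known in mm9. In the GRCm38 annotation it is the only coding gene between Fermt1, 606 kb away, and Hao1, 934 kb away on the other side. All 7 FL peaks lay within 45.6 kb of the 1 Mb window, from 133560622 to 133606241, and 4 of them within the first 4.90 kb. Of the 4 HL peaks, 1 lay there.

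The FL peaks of this stretch were of moderate height. The highest, chr2:133605535-133605711, was 4.12-fold (q of 0.0206), and no HL peak overlapped it. The peak chr2:133564641-133565056 was 3.84-fold in FLs (q of 0.00488) and 3.66-fold in HLs (q of 0.386), a ratio of 1.05, with summits 66 bp apart. So at this place the limbs had nearly the same fold while their q fell on opposite sides of 0.05. The third by height in FLs, chr2:133606108-133606241, was 3.23-fold (q of 1), and the HL peaks at chr2:133225024-133225167 and chr2:133376972-133377071, which were in HLs only, were 3.27-fold and 2.73-fold (both with a q of 1).

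Grem1 starts at position 113598803 on the minus strand, and Fmn1, which encodes the actin-regulating protein formin 1, starts at 113167939 on the plus strand, so the genes point towards each other. Their starts were 431 kb apart in mm9 and in GRCm38, and in GRCm38 the end of Fmn1 lies 41.9 kb from the start of Grem1. Of the 12 peaks in this window, 11 lay downstream of the Grem1 start, on the Fmn1 side, and 10 of these were more than 80 kb away. The peaks with a q of at most 0.05 were 4 FL peaks at 83.5, 84.1, 182 and 260 kb.

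The pair of peaks about 84 kb downstream of Grem1 had the highest folds. The FL peak chr2:113515144-113515364 was 4.47-fold (q of 0.00355) and had no HL peak over it. The FL peak chr2:113514679-113514902, 507 bp away from summit to summit, was 4.11-fold (q of 0.00931), and the HL peak over it, 3.66-fold (q of 0.386), was the highest HL peak of the window. One of the neighbouring summits was thus in both lists and the other in the FL list alone.

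Farther into Fmn1 the limbs shared both sites that had a q of at most 0.05 in FLs. At 182 kb, chr2:113416202-113416533 was 3.94-fold in FLs (q of 0.0289) and 3.33-fold in HLs (q of 0.169). At 260 kb, chr2:113338229-113338566 was 3.96-fold in FLs (q of 0.044) and 2.90-fold in HLs (q of 0.195). Summits in FLs and HLs were 10, 6 and 2 bp apart at the 3 shared places of this window, the FL fold was 1.12 to 1.36 times that of HLs, and each HL q stayed above 0.05. Near the gene itself there was an FL peak 1.40 kb upstream of the start (2.88-fold, q of 1) and one 34.0 kb downstream (2.96-fold, q of 1), and HLs had none within 84 kb.

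**Figure D4:**
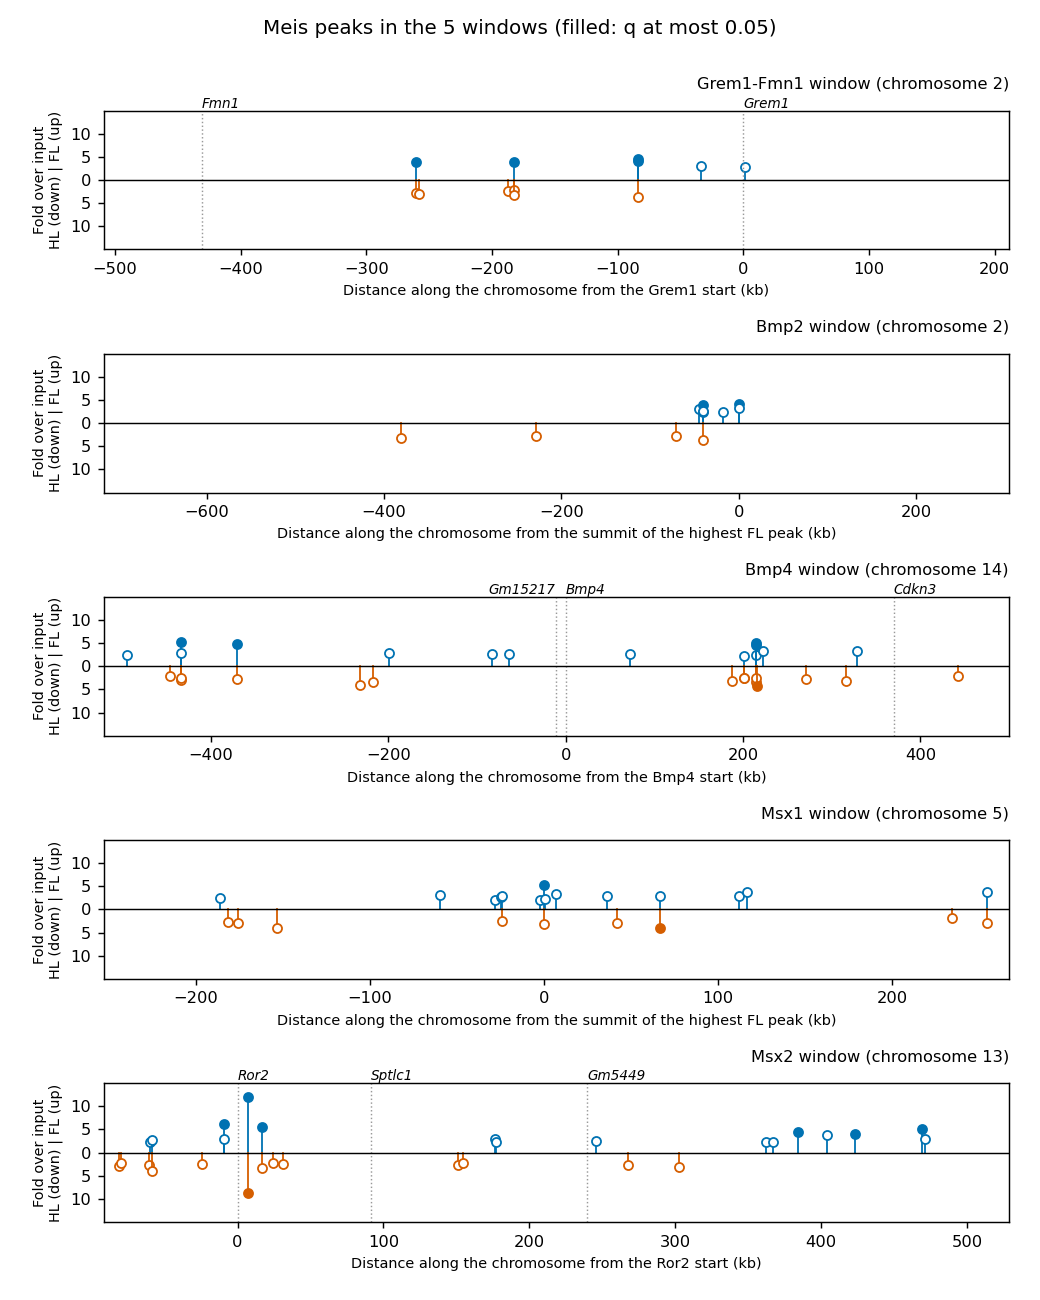
Fold over input of FL peaks (blue, upwards) and HL peaks (orange, downwards) in the 5 windows, against distance along the chromosome in kb, from the start of Grem1, Bmp4 or Ror2 or, for Bmp2 and Msx1, from the summit of the highest FL peak. Filled points have a q of at most 0.05 and dotted lines are known gene starts. For Grem1 and Bmp4, on the minus strand, negative distances are downstream. The 4 filled Grem1 peaks thus lie between the starts of Fmn1 and Grem1.

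Msx1 encodes a homeodomain repressor of the limb mesenchyme. Its start was not known in mm9, and in GRCm38 its coding neighbours are Cytl1, 80.7 kb away, and Stx18, 214 kb away. The window had 36 FL summits per Mb and 22 HL summits per Mb, against 8.71 and 6.77 over the lists, yet 1 FL peak and 1 HL peak reached a q of 0.05, and they were not the same place. Of the 14 FL peaks, 7 lay within 34.9 kb of each other, from 38214722 to 38249635, where HLs had 2 peaks.

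The FL peak with the highest fold, chr5:38242666-38243163, belonged to this group and was 5.18-fold (q of 0.000536), with an HL peak of 3.18-fold over it (q of 0.514). The reverse was seen at chr5:38309210-38309448, where the FL peak was 2.81-fold (q of 0.278) and the HL peak over it was 3.92-fold (q of 0.016). That place, 66.4 kb from the first between FL summits, was the only one in the 5 windows with a q of at most 0.05 in HLs alone. An HL peak without an FL peak, chr5:38089406-38089536, had the highest HL fold, 4.03 (q of 0.0806). The FL peaks chr5:38497637-38497772, which is shared, and chr5:38359226-38359477, which is not, followed in height with 3.81-fold (q of 0.144) and 3.73-fold (q of 0.186).

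The Msx2 window had the most FL peaks, but its high sites were not beside Msx2, which encodes a homeodomain factor closely related to Msx1. By the gene order of GRCm38, Msx2 lies between Sptlc1, a gene of sphingolipid synthesis, and the pseudogene Gm5449, 95.7 kb from the start of the former and 52.6 kb from that of the latter. The starts of these 2 neighbours were 148 kb apart in both builds, each resting on 1 distance in mm9. Between them, the lists had 2 FL peaks of 2.22-fold and 2.95-fold and 2 HL peaks of 2.25-fold and 2.68-fold. All 4 had a q of 1, and none overlapped a peak of the other limb. Over the lists, 22.6% of FL peaks and 29.0% of HL peaks did.

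The tallest site belonged to the surroundings of Ror2, which encodes a receptor tyrosine kinase for Wnt5a and starts 187 kb from Msx2 in GRCm38. The FL peak chr13:53388352-53388830 was 12.1-fold (q of 6.91e-27) and the HL peak over it, chr13:53388402-53388776, was 8.80-fold (q of 7.48e-13). Its summit lay 7.09 kb upstream of the Ror2 start, and the summits of the limbs were 26 bp apart. Around the same start, an FL peak 9.60 kb downstream, chr13:53371679-53372028, was 6.14-fold (q of 1.44e-07) without an HL peak, and one 16.9 kb upstream, chr13:53398166-53398493, was 5.53-fold in FLs (q of 7.53e-05) and 3.27-fold in HLs (q of 1). So 3 of the 6 FL peaks with a q of at most 0.05 in this window lay within 17 kb of Ror2.

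The other 3 lay beyond Gm5449, on the side of Msx2 away from Ror2. The FL peaks chr13:53765179-53766123, with 4 summits, chr13:53804489-53804797 and chr13:53850405-53851012 were 4.50-fold (q of 0.0053), 3.96-fold (q of 0.044) and 5.14-fold (q of 0.000186). In this stretch 8 FL peaks and 2 HL peaks were listed, and none of them overlapped. Over the lists, 22.6% of FL peaks and 29.0% of HL peaks overlapped a peak of the other limb. Among FL peaks with a q of at most 0.05 that share was 67.0%. The 3 strong FL peaks of the stretch were 144, 184 and 230 kb from the Gm5449 start. The second highest HL peak of the window, chr13:53322489-53322725, was 4.02-fold (q of 0.146) and the FL peak over it 2.80-fold (q of 1), 58.9 kb into the Ror2 side.

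Sharing between limbs was counted as an overlap of at least 1 bp. Of the FL peaks around the BMP genes, 16 of 57 overlapped an HL peak, 28.1% (18.1 to 40.8%), beside the 22.6% of the FL list. Of the HL peaks, 19 of 47 overlapped an FL peak, 40.4% (27.6 to 54.7%), beside 29.0% of the HL list. Among the FL peaks, 3 lay over 2 HL peaks each, which accounts for the difference between 16 and 19. Among FL peaks with a q of at most 0.05, 11 of 17 overlapped an HL peak, and the share over the list was 67.0%; all 3 HL peaks at that level overlapped an FL peak, and the share over the list was 89.3%. The 6 strong FL peaks without an HL peak were 4 in the Msx2 window, 1 beside Grem1 and 1 in the Bmp2 stretch.

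Folds in the shared pairs were mostly higher in FLs. This held in 13 of 16 pairs, and over all 4813 pairs in 62.1%. The median log2 ratio of FL to HL fold was 0.32 (0.07 to 0.70, interval from order statistics) around the BMP genes. That interval takes the pairs as independent, neighbouring pairs included, and holds no error between libraries. Over all pairs the median was 0.17, and the lists as a whole were thus shifted in the same direction. In linear terms the medians were 1.25 and 1.12. All 3 pairs at Grem1 and the 1 at Bmp2 were higher in FLs, as were 4 of 5 at Bmp4, 3 of 4 at Msx1 and 2 of 3 in the Msx2 window. The 3 pairs higher in HLs had FL folds of 2.13, 2.80 and 2.81 and HL folds of 2.48, 4.02 and 3.92, and lay in the Bmp4, Msx2 and Msx1 windows. Summits of the limbs were within 100 bp of each other in 14 of 16 pairs, 87.5%, beside 85.5% of all pairs.

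**Figure D5:**
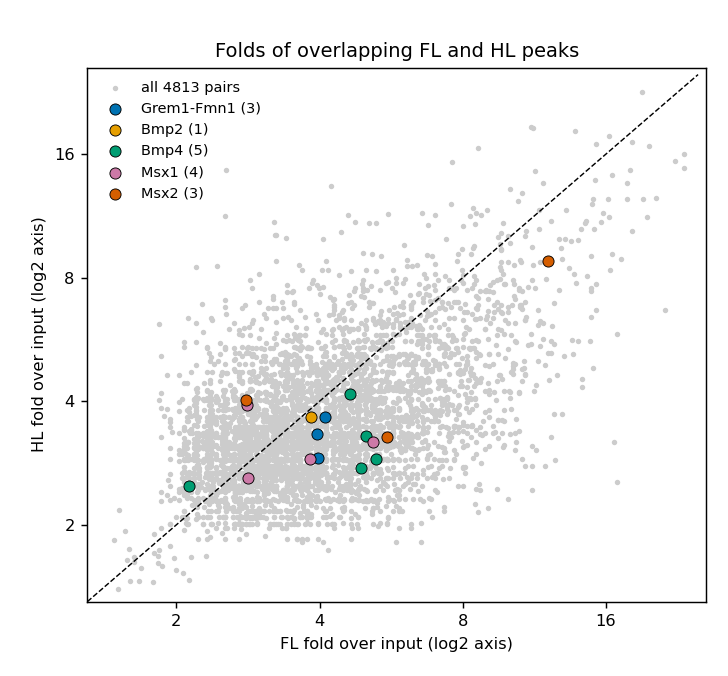
HL fold against FL fold (both on log2 axes) for all 4813 overlapping pairs in grey and the 16 pairs of the 5 windows in colour, with the number of pairs per window in the legend and the line of equal folds dashed. Of the coloured points 13 lie below the line, and the point of the Msx2 window at 12.1 and 8.80 lies apart from the rest.

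Other genes of the pathway were taken from a list of 34 ligands, receptors, Smads, modulators and targets, of which 10 had a known start in mm9, Grem1 and Bmp4 among them. Starts were known only for genes to which the study had assigned a peak common to FLs and HLs and whose distances agreed. Counts are therefore read against all 2024 genes placed in this way, a set that favours genes near shared peaks. A gene without a known start may still have been assigned a peak. Within 100 kb, 3 of the 8 other genes had an FL peak with a q of at most 0.05 and 2 had such an HL peak, and the shares over all placed genes were 47.2% and 28.6%. Grem1 had such peaks in FLs and Bmp4 in neither limb.

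A lowest q given here is that of any peak within 100 kb of the start, which need not be the highest peak. Among the other ligand genes, Gdf6, a gene of joint formation, had its highest FL peak, 8.01-fold, 18.5 kb upstream (lowest q of 1.18e-10). Its highest HL peak, 3.57-fold, lay 7.09 kb upstream (lowest q of 0.00617). The highest peaks at Gdf10 were 3.15-fold in FLs (lowest q of 0.918) and 2.88-fold in HLs (lowest q of 1). The type I receptor gene Bmpr1b had its highest FL peak, 6.29-fold, 51.4 kb upstream (lowest q of 1.44e-07). Its highest HL peak, at another place, was 4.03-fold (lowest q of 0.0806). Id2, a BMP target that encodes an inhibitor of basic helix-loop-helix factors, had its highest peak 2.67 kb upstream in both limbs. It was 8.30-fold in FLs (lowest q of 5.37e-15) and 4.71-fold in HLs (q of 0.000703). These 3 genes had higher FL folds than any peak within 100 kb of Grem1 or Bmp4. At the signal transducer Smad5 and the modulators Bambi, Bmper and Fst, the highest folds of either limb were between 2.29 and 3.57 and the lowest q, at Bmper in HLs, was 0.386.

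By its pair of highest folds within 100 kb, 4.47 in FLs and 3.66 in HLs, Grem1 was most like Slc14a2, Cntn5 and Cited1, at distances of 0.016, 0.023 and 0.035 on the log2 scale. The measure ran over the 2 ChIP libraries and over the 1542 placed genes with a peak in both limbs, and Bmp4, without an HL peak in that range, could not be included.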

How the data were processed

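ChIP-seq of Meis proteins was performed on FL and HL buds (1 ChIP and 1 input library per limb), and the peak lists of both ChIP libraries were used. Per the methods, alignment to mm9 was done by the authors with BWA, and peaks were called with MACS2 over the input of that limb. CASAVA 1.8.2 and cutadapt 1.3 are named in the submitters' processing notes. The deposited lists give, per summit, the authors' fold enrichment (a ratio of ChIP to local input signal), their −log10 p-value and −log10 q-value, the distance of the summit from the peak start in bp, and a score, which was not used. For 14 HL summits and 0 FL summits the deposited score differed from 10 times the −log10 p. The values depend on the input and depth of each library and are not scaled between limbs.

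Summits that shared their peak limits were joined into 1 peak, which took their highest fold and lowest p and q. Overlap required 1 bp, and where several HL peaks overlapped an FL peak the one with the highest fold was its pair. Gene starts in mm9 came from 1994 entries of the study's peak-to-gene distances, which cover peaks common to FLs and HLs. They were kept where all distances agreed within 2 bp (2024 genes). No coordinate was converted between builds; the GRCm38 annotation gave only gene order, distances between genes and promoter sequences. Sequence under the peaks was not analysed here, and results that need an item withheld for evaluation are not reported here, so the pathway list and its counts leave that item out. Shares carry 95% Wilson intervals. Tables were made in Python 3.11.15 (pandas 2.3.3, numpy 2.4.6), intervals with scipy 1.17.1 and figures with matplotlib 3.10.9, and overlaps and starts were tested on simulated data.

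Named were the 5 genes, their neighbours, the 3 highest FL and HL peaks of each window, pairs with q of at most 0.05 in both limbs, the pathway genes with a start, and the 3 genes most like each gene with a start. Other peaks are named where a sentence turns on their position. The genes, windows and lists were chosen with earlier results of these data known. Alternatives changed the p, q or fold limit, the overlap, the counting of summits, the ranking and the distance to a gene.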

Additional observations from a re-analysis of the deposited data

How the results depend on the processing

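Of 42 alternatives, 24 left the value close to the reported one and 18 moved it, most of them because a stricter limit keeps fewer peaks. Against 57 FL and 47 HL peaks in the windows, 23 and 21 remained with p of at most 0.0005, 17 and 3 with q of at most 0.05, and 7 and 1 with a fold of at least 5. The share of FL peaks overlapping an HL peak rose over the same limits to 56.5, 64.7 and 71.4%, and that of HL peaks to 61.9, 100 and 100%. The HL values of 100% rest on 3 peaks and 1 peak, with lower Wilson limits of 43.85 and 20.65%. Sharing was also higher at the q limit over the whole lists, 67.0% in FLs and 89.3% in HLs. Whole-list shares at the p and fold limits were not computed. The 3 strong HL peaks became 5 with p of at most 1e-05 and 1 with q of at most 0.01. Summits per Mb fell to 5 in FLs and 0.789 in HLs when only those with q of at most 0.05 were counted. Within 200 kb, 6 of the 8 other pathway genes had a strong FL peak and 3 a strong HL peak, 75% and 37.5%. At that distance the shares over all placed genes were 66.9% and 45.3%. Leaving out the Msx2 window, an alternative chosen after seeing the data, left 11 strong FL peaks. The median log2 ratio stayed above 0 under each alternative run, between 0.15 (after subtraction of the median over all pairs) and 0.45. The highest value came from keeping pairs with a q of at most 0.05 in a limb. Of the 16 pairs, 11 had such a q in FLs and 3 in HLs. That choice favours high FL folds and cannot speak to the sign of the ratio. No paired analysis was possible because each limb had 1 ChIP library and no test was made. The missing replicate, and the lack of read counts per peak in the lists, limit every comparison between FLs and HLs, and the lists do not show whether a site absent from 1 list was unbound or below its limit.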
